A study of Mus musculus with 22 samples.

Results

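Insulin signalling was followed through 10 genes in the white fat of mice with transplanted bone marrow. The genes were Insr, Irs1, Irs2, Pik3r1, Akt1, Akt2, Gys1, Slc2a4, Pde3b and Foxo1. They span the main steps from the insulin receptor to its metabolic targets in fat, and were chosen with earlier results of these data known. All 10 were found by symbol among 19337 named genes of the array, each with 1 feature, and all 10 passed the filter on low values. The 22 samples came from male C57BL/6J mice that had received marrow, were given 6 weeks for it to reconstitute, and were then fed for 14 weeks on a diet whose fat supplied 60% of the calories. All groups shared the transplant and the diet, so none stands for a lean or an untransplanted mouse. Donor marrow was of 3 kinds: wild type (WT); Gipr-/-, lacking the receptor for the incretin hormone GIP; and Gipr-/-S100a9-/-, which also lacks a subunit of the calcium-binding alarmin calprotectin and is called double-knockout marrow here. WT and Gipr-/- marrow went into WT recipients, and what recipients the double-knockout marrow went into is not given by the labels. Epididymal fat (epiWAT, the visceral pad beside the testis) had 4 samples per kind of marrow. Inguinal subcutaneous fat (ingWAT) had 4 WT samples, 3 Gipr-/- samples and 3 double-knockout samples.

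Insulin binds its receptor on the adipocyte surface, and the receptor phosphorylates the docking proteins IRS1 and IRS2. These recruit PI3-kinase, whose lipid product brings Akt to the membrane, and Akt then promotes glucose uptake through the transporter GLUT4, glycogen synthesis and the block of fat breakdown, and keeps the transcription factor FOXO1 out of the nucleus. In obesity the signal weakens in fat, and low IRS1 in adipocytes is one of its known marks. The arrays measured messenger RNA in whole fat, which holds adipocytes of the recipient beside marrow-derived cells. Neither phosphorylation nor protein was measured.

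Expression is given as log2 values, on which a difference of 1 is a doubling. Levels were compared within a gene only, since a probe's brightness does not rank one gene against another. Adipoq, the gene of the adipocyte hormone adiponectin, lay between 18.0 and 19.4 on all 22 arrays. The targeted genes are intact in the cells of WT recipients, so their level in whole fat does not check the labels: Gipr ranged from 4.02 to 6.10 and S100a9 from 4.56 to 6.98. In epiWAT Gipr read higher with Gipr-/- marrow (5.14 to 5.65) than with WT marrow (4.55 to 5.07). Several arrays carried markers of other tissue. Among the epiWAT arrays, Gipr-/- array 1 had the highest germ cell marker level and double-knockout array 1 the highest epididymis level. WT array 2 came next in both, at 3.49 for germ cell and 3.89 for epididymis markers. It was kept where the 2 epiWAT arrays of other tissue were left out. In ingWAT, WT arrays 1, 2 and 3 and double-knockout array 2 were rich in skeletal muscle genes, and double-knockout arrays 1 and 3 in B cell genes. Muscle markers were also raised, though less, on double-knockout array 1 (2.62) and Gipr-/- array 3 (2.03) of ingWAT. Both were kept where the muscle-rich arrays were left out, so those values are not free of muscle. Some results that rest on these arrays are given with and without them. No separate value without them is given for the epiWAT differences of Irs1, Insr, Akt2 and Gys1. The same holds for the ingWAT difference of Irs1 between double-knockout and Gipr-/- marrow. A difference in whole tissue cannot tell fewer cells of a type from less RNA per cell.

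The promoters of 3 members are shown because their genes make the main contrast among the members: Irs1, which differed most between kinds of marrow, its paralogue Irs2, which did not follow it, and Gys1, the member most like Irs1 across the arrays. Each is the 250 bases before the RefSeq gene start (build GRCm38.p6), read 5′ to 3′ on the gene's own strand. Capitals mark the E-box CACGTG, a palindrome bound by basic helix-loop-helix factors.
Irs1: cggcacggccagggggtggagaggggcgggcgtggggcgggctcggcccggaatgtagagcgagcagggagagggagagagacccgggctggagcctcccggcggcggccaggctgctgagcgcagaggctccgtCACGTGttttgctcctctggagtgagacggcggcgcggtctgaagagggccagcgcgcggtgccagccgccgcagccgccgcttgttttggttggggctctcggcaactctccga
Irs2: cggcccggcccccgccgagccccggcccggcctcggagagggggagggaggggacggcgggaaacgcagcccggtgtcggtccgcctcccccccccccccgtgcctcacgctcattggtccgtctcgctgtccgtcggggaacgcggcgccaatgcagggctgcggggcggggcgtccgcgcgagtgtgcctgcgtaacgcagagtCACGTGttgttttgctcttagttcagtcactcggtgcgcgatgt
Gys1: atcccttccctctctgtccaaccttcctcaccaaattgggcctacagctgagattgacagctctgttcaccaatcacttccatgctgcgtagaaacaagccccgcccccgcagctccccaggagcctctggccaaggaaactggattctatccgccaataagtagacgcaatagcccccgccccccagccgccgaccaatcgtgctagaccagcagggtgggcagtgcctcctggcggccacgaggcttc
The Irs1 stretch is chr1:82291440-82291689 on the minus strand, that of Irs2 chr8:11008930-11009179 on the minus strand, and that of Gys1 chr7:45434589-45434838 on the plus strand. CACGTG stood from base 115 to base 110 before the start of Irs1 and from base 44 to base 39 before that of Irs2. It was found in 6.04% of 27025 starts in the table and in 2 of the 7 members listed there. Insr, Slc2a4 and Pde3b were not in the table. The GC box GGGCGG, read on both strands, was found in 6 of the 7 members and in 33.0% of all starts. Both Irs promoters hold it and are rich in G and C, at 72.4% for Irs1 and 72.8% for Irs2, against 60.0% for Gys1. CCAAT, read on both strands, was found in 4 of the 7 members, Gys1 and Irs2 among them, and in 34.5% of all starts. The FOXO site GTAAACA was found in the Akt1 promoter alone among the 7 and in 3.06% of all starts. These matches are a description of letters in a window.

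Irs1 was lower in fat under Gipr-/- marrow than under either other kind of marrow, in both depots. In epiWAT the 4 arrays with WT marrow read 8.39, 7.84, 8.46 and 8.29, those with Gipr-/- marrow 6.16, 6.88, 5.70 and 6.89, and those with double-knockout marrow 7.93, 8.62, 8.44 and 8.62. Every Gipr-/- array lay below every other epiWAT array, while WT and double-knockout arrays overlapped. In ingWAT the WT arrays read 10.98, 9.26, 10.23 and 9.00, the Gipr-/- arrays 6.90, 6.22 and 8.17, and the double-knockout arrays 9.32, 9.25 and 8.22. Again the 3 Gipr-/- arrays were the lowest, though the highest of them stood only just under the lowest double-knockout array. The sample codes of ingWAT WT array 4 (9.00) and Gipr-/- arrays 1 and 2 (6.90 and 6.22) are higher than those of all other ingWAT arrays. The labels do not say what the codes stand for, and their part in the difference was not tested.

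**Figure D1:**
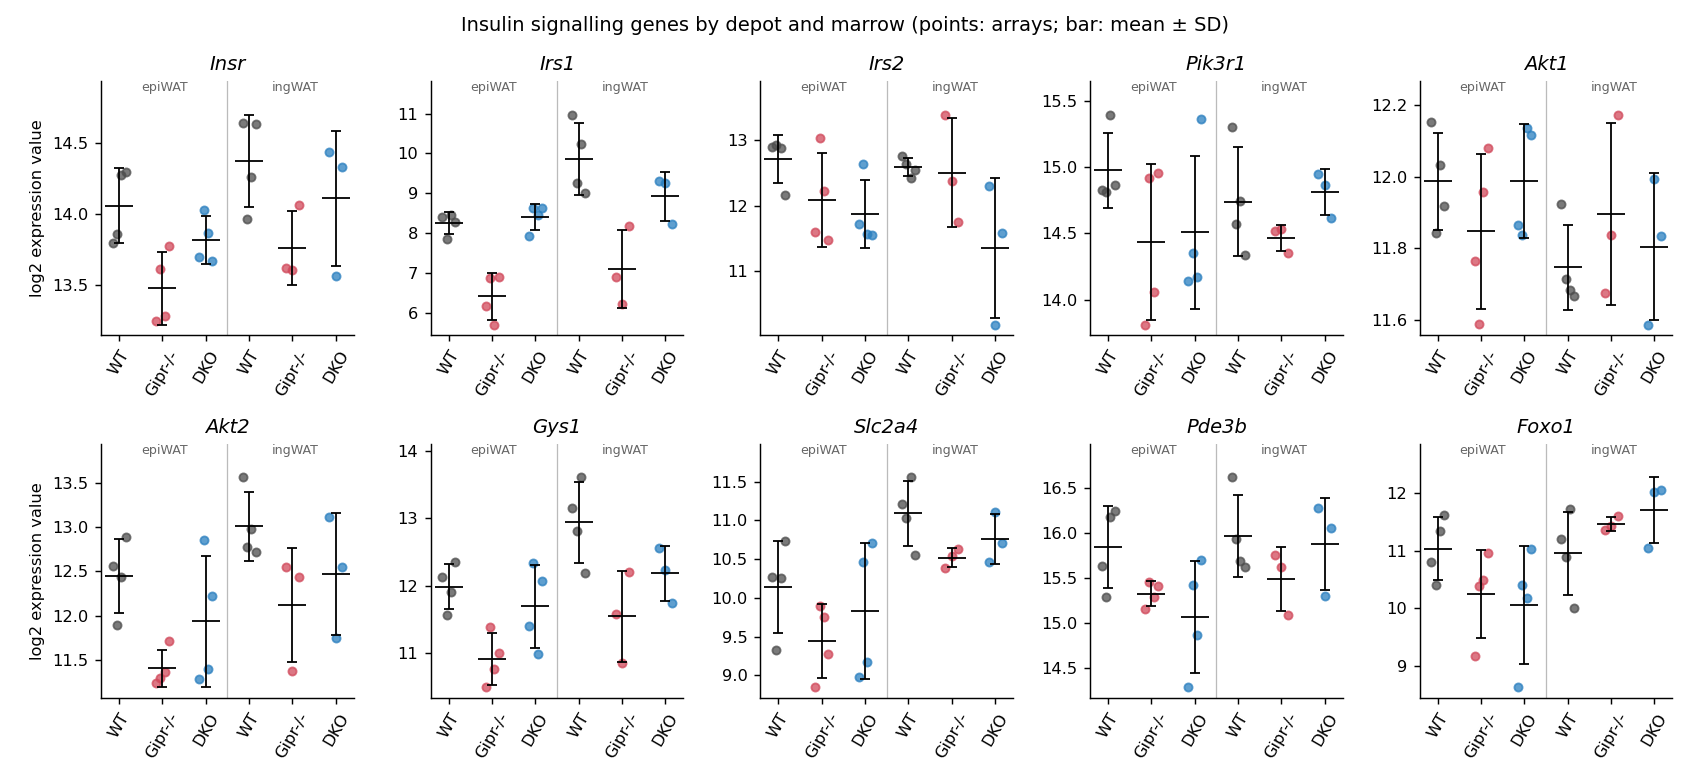
Each panel plots the log2 expression value of 1 gene (vertical axis, its own scale) for the 6 groups of depot and marrow, with a point per array and a bar for the mean ± SD (n = 3 or 4). The red Gipr-/- points of Irs1 lie below all WT and double-knockout (DKO) points of the same depot, whereas the Akt1 panel spans well under 1 log2 unit.

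The size of the Irs1 difference was large beside the spread of the arrays, but single depots did not carry it past the threshold over all genes. In epiWAT the difference between Gipr-/- and WT marrow was -1.84 (SE 0.30, n = 4 and 4), or 3.58-fold lower, with a limma adjusted p of 0.22, and it ranked 2 among 14503 genes tested by p. Of those genes 0% passed an adjusted p of 0.05, and 1052 had an unadjusted p under 0.05. In ingWAT the difference was -2.77 (SE 0.55, n = 3 and 4), or 6.83-fold lower, with an adjusted p of 0.0561, where 0.234% of genes passed. The exact permutation test, two-sided, gave p = 0.0286 in epiWAT and p = 0.0571 in ingWAT, each the smallest that so few arrays can give.

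Irs1 was higher again under double-knockout marrow than under Gipr-/- marrow. Double-knockout minus Gipr-/- was 2.00 (SE 0.30) in epiWAT, 3.99-fold higher and the smallest p of all genes tested, with an adjusted p of 0.143, where 0% of genes passed and 1555 had an unadjusted p under 0.05. In ingWAT it was 1.83 (SE 0.58), 3.57-fold higher, with an adjusted p of 0.108. Against WT marrow, double-knockout marrow gave 0.16 (SE 0.30, interval of 2 SE from -0.44 to 0.76) in epiWAT and -0.94 (SE 0.55, from -2.03 to 0.16) in ingWAT. These comparisons share the Gipr-/- or the WT arrays with each other, so they are not independent of one another.

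Averaged over the depots in 1 fit of all 22 arrays, Irs1 fell by 2.30 under Gipr-/- marrow (SE 0.32, limma adjusted p = 0.005), the smallest p of 14503 genes. In the same fit it rose from Gipr-/- to double-knockout marrow by 1.92 (SE 0.33, adjusted p = 0.00764), ranking 26. This average was added after the values of single depots had been seen. Its p-values treat the epiWAT and ingWAT arrays as independent, and the labels do not say whether the 2 depots share mice. Double-knockout minus WT was -0.39 (SE 0.32, adjusted p 0.784). The difference between the depots in the Gipr-/- effect was -0.93 (SE 0.64, adjusted p 0.77), and -0.07 without the 4 muscle-rich arrays. Both calls held without any single array, at an adjusted p of up to 0.0323 and 0.0362.

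The group order of Irs1 ran from 9.87 ± 0.91 (SD, n = 4) in ingWAT with WT marrow through 8.93 ± 0.62 (n = 3) with double-knockout marrow, then 8.40 ± 0.32 and 8.25 ± 0.28 in epiWAT with double-knockout and WT marrow (n = 4 each), to 7.09 ± 0.99 (n = 3) and 6.41 ± 0.58 (n = 4) under Gipr-/- marrow in ingWAT and epiWAT. The arrays of each pair of neighbours in that order overlapped. With WT marrow ingWAT exceeded epiWAT by 1.62 (SE 0.44, adjusted p 0.0585) with no overlap, where 4.38% of genes were higher without overlap. Without the 4 muscle-rich arrays that difference was 0.75 (adjusted p 0.703). With Gipr-/- marrow the depots differed by 0.69 (SE 0.47) and with double-knockout marrow by 0.52 (SE 0.47), and the arrays overlapped in both.

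Lipid-associated macrophage markers were highest under Gipr-/- marrow, where Irs1 was lowest, in each depot. The mean level of 12 lipid-associated macrophage genes, centred on each gene's mean, was 1.68 (1.27 to 2.33) in epiWAT with Gipr-/- marrow against 0.01 (-0.60 to 1.17) with WT and -0.35 (-1.42 to 0.45) with double-knockout marrow. In ingWAT it was 0.26 (-0.11 to 0.50), -0.66 (-1.42 to 0.27) and -1.16 (-1.48 to -0.92) in the same order. In each depot the group of highest macrophage level was thus the group of lowest Irs1. Between WT and double-knockout marrow in ingWAT the order differed, since the macrophage level and Irs1 both averaged lower with double-knockout marrow. Trem2, a receptor that defines these macrophages, read 8.32 to 9.25 in epiWAT with Gipr-/- marrow, 6.06 to 8.31 with WT and 6.02 to 7.67 with double-knockout marrow. In ingWAT it read 6.17 to 6.65, 4.90 to 7.11 and 4.99 to 5.46 in the same order. Gpnmb, another defining gene, read 13.18 to 13.97, 8.90 to 12.53 and 8.26 to 11.50 in epiWAT. In ingWAT Gpnmb read 10.14 to 10.97, 8.45 to 13.26 and 8.47 to 10.59. A WT array was thus highest for both genes in ingWAT. Of the 12 genes, Lpl is also an adipocyte gene. With this level as a covariate, the Irs1 difference between Gipr-/- and WT marrow was -1.98 in epiWAT and -1.64 in ingWAT. The difference between double-knockout and Gipr-/- marrow was 2.17 in epiWAT but 0.08 (SE 0.60) in ingWAT. In the average over depots the calls were lost with it, at -1.85 (adjusted p 0.221) and 1.31 (adjusted p 0.698). In epiWAT the macrophage level of every Gipr-/- array lay above that of every WT and double-knockout array, and in ingWAT above that of every double-knockout array. In these comparisons the macrophage level and the marrow cannot be told apart, so the values with the covariate, -1.98 and 2.17 included, rest on the model alone.

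The adipocyte level, over 16 genes, did not order the groups as Irs1 did. It was 0.27, -0.26 and -0.28 in epiWAT with WT, Gipr-/- and double-knockout marrow, and 0.12, 0.14 and 0.07 in ingWAT. With it as a covariate the Irs1 difference in epiWAT was -1.67 (adjusted p 0.0298) for Gipr-/- minus WT and 2.00 (adjusted p 0.0128) for double-knockout minus Gipr-/-. Passing the threshold was the exception in epiWAT. Of 25 settings per difference, 3 passed for Gipr-/- minus WT and this setting alone for double-knockout minus Gipr-/-. Without a covariate the limma adjusted p was 0.22 and 0.143 in that order. No ingWAT value with the adipocyte level as a covariate is given. Skeletal muscle also expresses Irs1. In ingWAT the muscle level read 4.74, 6.83, 7.57 and -1.66 on the WT arrays and -0.79, 0.67 and 2.03 on the Gipr-/- arrays. WT array 4 had the lowest muscle level of the depot and read 9.00 for Irs1, with the Gipr-/- arrays at 6.22 to 8.17. The part of muscle in the difference was not tested beyond the settings that follow. With the muscle level as a covariate, the Irs1 average over depots for Gipr-/- minus WT stayed past the threshold. Without the 4 muscle-rich arrays, which leaves that WT array alone and assumes it varies like the other groups, the ingWAT difference was -1.90 (adjusted p 0.277). The average over depots was then -1.87 (adjusted p 0.171), past the threshold no more. The rise to double-knockout marrow was 2.08 (adjusted p 0.0636) without the 2 B cell-rich arrays, which leaves 1 double-knockout ingWAT array.

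**Figure D2:**
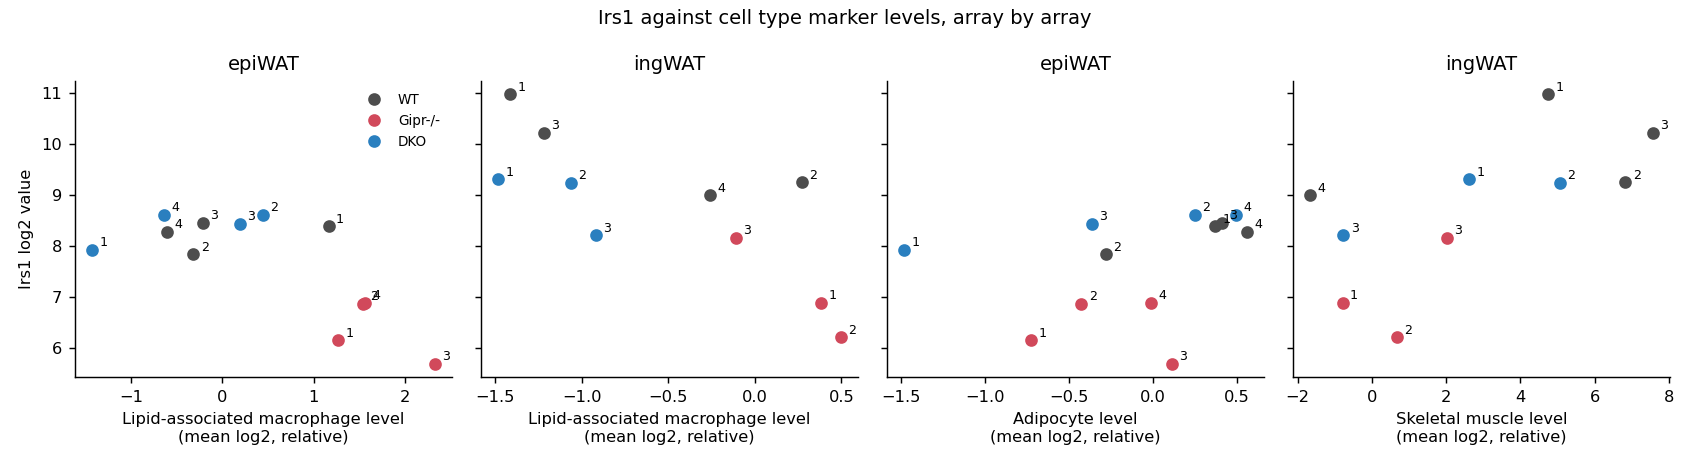
Each point is 1 array, placed by its Irs1 log2 value (vertical axis) and a cell type marker level (horizontal axis, mean log2 of the list relative to each gene's mean over 22 arrays), with its array number beside it. In epiWAT the 4 Gipr-/- arrays stand at macrophage levels of 1.27 to 2.33 with the lowest Irs1, and in ingWAT WT array 4 combines a muscle level of -1.66 with an Irs1 value of 9.00.

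Insr encodes the insulin receptor itself. It read 13.80, 13.86, 14.28 and 14.29 on the WT arrays of epiWAT, 13.25, 13.61, 13.29 and 13.77 on the Gipr-/- arrays, and 13.67 to 14.03 on the double-knockout arrays. The Gipr-/- arrays lay below all WT arrays, by a narrow margin, and the difference was -0.58 (SE 0.19, adjusted p 0.579). In ingWAT it was -0.61 (SE 0.27, adjusted p 0.304) with overlapping arrays. The average over depots was -0.60 (SE 0.16, adjusted p 0.0877), under the size seen for Irs1 and not past the threshold. From Gipr-/- to double-knockout marrow Insr differed by 0.34 (SE 0.19) in epiWAT and 0.35 (SE 0.28) in ingWAT.

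Irs2, the other main docking protein, had an order of its own and was lowest under double-knockout marrow. In epiWAT it averaged 12.71 ± 0.37 for WT marrow, 12.08 ± 0.72 for Gipr-/- and 11.87 ± 0.52 for double-knockout (SD, n = 4 each). In ingWAT the WT arrays read 12.76, 12.63, 12.43 and 12.54, the Gipr-/- arrays 13.39, 12.37 and 11.75, and the double-knockout arrays 12.30, 10.19 and 11.58. The double-knockout arrays of ingWAT lay below all 4 WT arrays, as for 5.91% of genes, while the Gipr-/- arrays spread across both. Double-knockout minus WT was -0.84 (SE 0.36, adjusted p 0.999) in epiWAT and -1.24 (SE 0.46, adjusted p 0.271) in ingWAT. The average was -1.04 (SE 0.31, adjusted p 0.338), with an unadjusted rank of 135, so no call was made. The ingWAT value was -0.60 without the muscle-rich and -2.40 without the B cell-rich arrays. Gipr-/- minus WT was -0.63 (SE 0.36) in epiWAT and -0.09 (SE 0.46) in ingWAT, where the interval of 2 SE ran from -1.01 to 0.84.

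Pik3r1 encodes the regulatory p85 subunit of PI3-kinase, which holds the enzyme to the docking proteins. Gipr-/- minus WT was -0.54 (SE 0.34) in epiWAT and -0.27 (SE 0.23) in ingWAT, with overlapping arrays in both. The 3 double-knockout ingWAT arrays, 14.95, 14.86 and 14.61, lay above the 3 Gipr-/- arrays, 14.52, 14.53 and 14.35, by 0.34 (SE 0.25, adjusted p 0.534). That gap came to little more than the SE.

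The 2 Akt genes parted. Akt2, the form needed for insulin-driven glucose uptake in fat, read 12.56, 11.89, 12.44 and 12.89 on the epiWAT arrays of WT marrow, 11.23, 11.30, 11.36 and 11.71 on those of Gipr-/- marrow, and 11.27, 12.85, 11.39 and 12.23 on those of double-knockout marrow. The Gipr-/- arrays lay below all WT arrays, and the double-knockout arrays spanned both ranges. The difference was -1.05 (SE 0.34, adjusted p 0.579) in epiWAT and -0.89 (SE 0.37, adjusted p 0.287) in ingWAT, also without overlap and at -0.60 (adjusted p 0.619) without the muscle-rich arrays. The average over depots was -0.97 (SE 0.26, adjusted p 0.0917), short of the threshold. Akt1, the form more tied to growth and survival, averaged 11.99 ± 0.13, 11.85 ± 0.22 and 11.99 ± 0.16 in epiWAT with WT, Gipr-/- and double-knockout marrow (SD, n = 4 each). Its average difference between Gipr-/- and WT marrow was 0.00 (SE 0.12), with an interval of 2 SE from -0.23 to 0.24. Over the 22 arrays its SD was 0.18, at percentile 0.119 of all genes, against 1.31 for Irs1 at percentile 94.8.

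Among the targets, Gys1, the glycogen synthase of muscle and fat, followed Irs1 most closely. In epiWAT the WT arrays read 12.12, 11.56, 11.90 and 12.35, the Gipr-/- arrays 10.48, 11.38, 10.76 and 11.00, and the double-knockout arrays 11.40, 12.34, 10.98 and 12.06. In ingWAT the WT arrays read 13.15, 12.82, 13.61 and 12.18, the Gipr-/- arrays 11.58, 10.85 and 12.20, and the double-knockout arrays 12.56, 12.23 and 11.75. The Gipr-/- arrays lay below all WT arrays in epiWAT, and in ingWAT 1 of them reached into the WT range at its very bottom. The difference from WT was -1.08 (SE 0.31, adjusted p 0.549) in epiWAT and -1.40 (SE 0.38, adjusted p 0.119) in ingWAT. Averaged over the depots Gys1 fell by 1.24 (SE 0.26, limma adjusted p = 0.0342), or 2.36-fold. Leaving out any of 9 single arrays lost that call: ingWAT WT arrays 1, 2 and 3, ingWAT Gipr-/- arrays 1 and 2, epiWAT WT arrays 3 and 4, and epiWAT Gipr-/- arrays 3 and 4, with adjusted p from 0.0517 to 0.161. Gys1 is a muscle gene too, and without the 4 muscle-rich arrays the ingWAT difference was -0.64 and the average lost its call (adjusted p 0.399). It was lost as well with the macrophage level (adjusted p 0.376) or the muscle level (0.094) as a covariate and with arrays centred on their medians (0.0693). From Gipr-/- to double-knockout marrow the average was 0.71 (SE 0.27, adjusted p 0.173).

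Slc2a4, which encodes the insulin-regulated glucose transporter GLUT4, had larger differences between depots than between kinds of marrow, none past the threshold. Its ingWAT values exceeded those of epiWAT by 0.95 (SE 0.37, adjusted p 0.2) for WT marrow, 1.08 (SE 0.40, adjusted p 0.209) for Gipr-/- and 0.94 (SE 0.40, adjusted p 0.187) for double-knockout. With Gipr-/- marrow the ingWAT arrays, 10.39, 10.54 and 10.63, all lay above the epiWAT arrays, 8.85, 9.90, 9.76 and 9.27, and 9.23% of genes were higher without overlap in that comparison. Muscle expresses Slc2a4 as well, and the muscle levels of all 3 Gipr-/- ingWAT arrays (-0.79 to 2.03) lay above those of the Gipr-/- epiWAT arrays (-2.18 to -1.77); the part of muscle was not tested. With WT marrow the depot difference was 0.41 (adjusted p 0.85) without the muscle-rich arrays, and with double-knockout marrow 0.76. Gipr-/- minus WT was -0.70 (SE 0.44) in epiWAT and -0.57 (SE 0.27) in ingWAT, averaging -0.64 (SE 0.27, adjusted p 0.286), and the ingWAT value was -0.04 (adjusted p 0.978) without the muscle-rich arrays.

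Pde3b encodes the phosphodiesterase through which insulin restrains fat breakdown. Gipr-/- minus WT was -0.51 (SE 0.31) in epiWAT and -0.48 (SE 0.30) in ingWAT, with overlap. In epiWAT it was lowest with double-knockout marrow, at 15.07 ± 0.62 against 15.84 ± 0.45 with WT (SD, n = 4 each), a difference of -0.77 (SE 0.31, adjusted p 0.999). Double-knockout array 1, which had the highest epididymis level of 5.89 and an adipocyte level of -1.48, was also its lowest array at 14.29. Without the 2 epiWAT arrays of other tissue the difference was -0.51.

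Foxo1, a transcription factor that insulin silences, had differences of opposite sign in the depots, each larger than its SE. Double-knockout minus WT was -0.98 (SE 0.51) in epiWAT and 0.75 (SE 0.38) in ingWAT. These were -0.51 without the 2 epiWAT arrays of other tissue and 1.55 without the muscle-rich arrays, and over all arrays the difference between them was 1.73 (SE 0.68, adjusted p 0.446), which did not pass. The ingWAT arrays with double-knockout marrow, 11.05, 12.01 and 12.05, lay above the epiWAT arrays, 8.63, 10.40, 10.17 and 11.02. That depot difference was 1.65 (SE 0.50, adjusted p 0.07), where 6.57% of genes were higher without overlap. Epididymis-rich array 1 was again the lowest, and the 2 highest ingWAT arrays were arrays 2 and 3, the first rich in muscle and the second in B cell genes. Without the 2 epiWAT arrays of other tissue it was 1.17 (adjusted p 0.108), without the muscle-rich arrays 1.49 and without the B cell-rich arrays 1.96 (adjusted p 0.199). With Gipr-/- marrow the depots also did not overlap, at 1.22 (SE 0.50, adjusted p 0.259), or 0.86 without the arrays of other tissue.

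**Figure D3:**
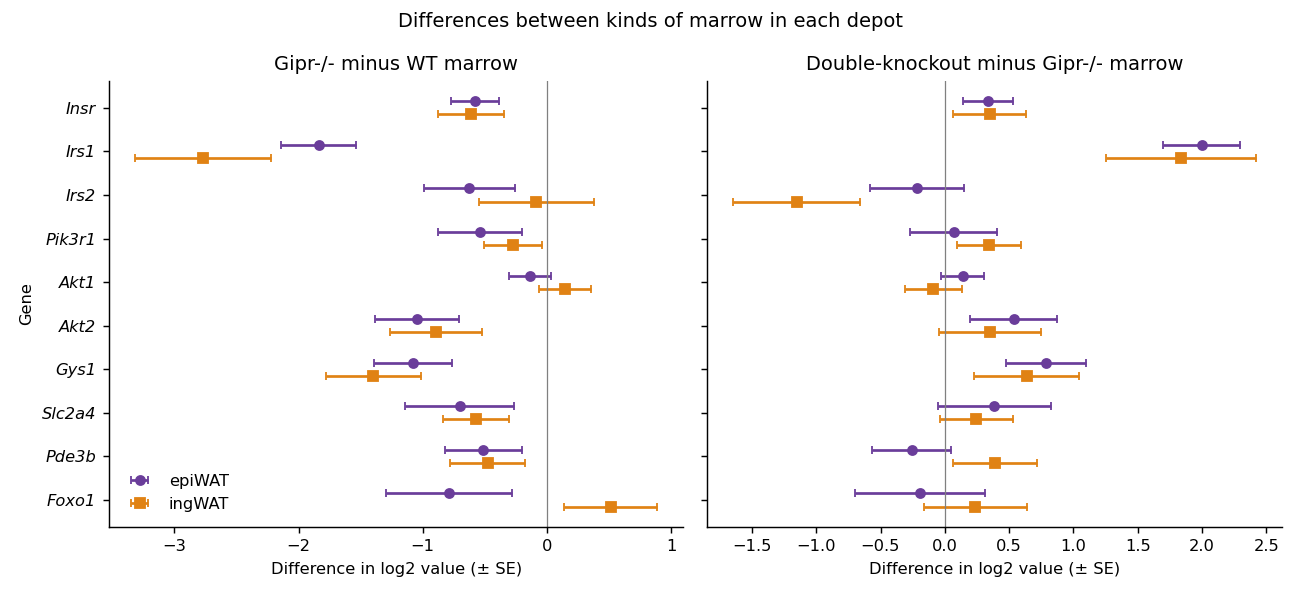
Points give the difference in log2 value (horizontal axis) for each gene in epiWAT (circles) and ingWAT (squares), and bars are 1 SE from the limma fit of that depot. The left panel is Gipr-/- minus WT marrow and the right panel double-knockout minus Gipr-/- marrow; Irs1 stands out on both sides, at -1.84 and -2.77 on the left and 2.00 and 1.83 on the right.

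Counted together, the members leaned downward under Gipr-/- marrow. These counts include differences smaller than their SE, such as those of Akt1. Since the members were chosen with earlier results of these data known, the counts describe them and are no test of the pathway. In epiWAT 10 of 10 were below 0 against 51.7% of all genes tested, with a median of -0.66 against -0.02 for all genes. Irs1, Insr, Akt2 and Gys1, which is 4 of 10, lay below WT without overlap, a pattern shown by 2.75% of genes. In ingWAT 8 of 10 were below 0 against 47.2%, with a median of -0.53 against 0.03, and Irs1 and Akt2 did not overlap, as for 5.15% of genes. The exceptions in ingWAT were Akt1 at 0.15 and Foxo1 at 0.51. Going from Gipr-/- to double-knockout marrow, 7 of 10 were above 0 in epiWAT and 8 of 10 in ingWAT, against 49.7% and 47.9% of genes. There Irs1 alone in epiWAT, and Irs1 and Pik3r1 in ingWAT, were higher without overlap, against 3.14% and 8.35% of genes. Within a depot 0 of 10 passed limma's adjusted threshold in any comparison of marrow. For Gipr-/- minus WT, 4 members had an unadjusted p under 0.05 in each depot, all lower, as had 3.92% of genes in epiWAT and 5.1% in ingWAT. Between depots 0 of 10 passed, against 1.96%, 0.614% and 3.92% of genes under WT, Gipr-/- and double-knockout marrow. At an unadjusted p under 0.05, 3, 2 and 3 members were higher in ingWAT in that order, against 6.8%, 8.21% and 9.3% of genes. In the differences between depots 0 of 10 passed as well, against 0.717% of genes for double-knockout minus Gipr-/- and 0% for the other contrasts; Foxo1 had an unadjusted p under 0.05 for double-knockout minus WT, as had 5.4% of genes in its direction. In the average over depots 2 of 10 passed for Gipr-/- minus WT, against 0.572% of genes, 1 of 10 for double-knockout minus Gipr-/-, against 1.92%, and 0 of 10 for double-knockout minus WT, against 0.0069%.

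Likeness to Irs1 across arrays is given as a description, since the arrays share depot, marrow and tissue makeup. Over the 12 epiWAT arrays the closest of all genes tested were Ecsit (Pearson r 0.974, Spearman rho 0.965), G0s2, which encodes an inhibitor of fat breakdown (r 0.962, rho 0.797), Zbtb4 (r 0.954, rho 0.937), Pef1 (r 0.922, rho 0.895) and Pik3r2, another PI3-kinase regulatory subunit (r 0.919, rho 0.874). Over the 10 ingWAT arrays they were Tro (r 0.964, rho 0.952), Efs (r 0.956, rho 0.964), Zfp579 (r 0.955, rho 0.964), Ppargc1b (r 0.931, rho 0.915) and Ndufs3, a subunit of mitochondrial complex I (r 0.927, rho 0.915). No gene stood on both lists. Among the members Gys1 was closest in both depots, with r 0.799 in epiWAT and 0.927 in ingWAT, where it ranked 6. Irs2 showed little likeness, with r 0.152 and -0.0991, and so did Foxo1 with r 0.314 and -0.122.

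Other genes of the pathway were split between higher and lower values. The array held 111 listed pathway genes beside the members, and for Gipr-/- minus WT 57 of 107 tested were below 0 in epiWAT (median -0.09) and 54 of 108 in ingWAT (median -0.01). None passed the threshold in either depot, and 8 in epiWAT and 26 in ingWAT had an unadjusted p under 0.05, against 7.25% and 15% of all genes. Docking proteins and adaptors included Irs3, another IRS gene of rodents, at -1.20 (SE 0.65, adjusted p 0.729), and Sh2b1, an adaptor of the receptor, at -0.69 (SE 0.29, adjusted p 0.666), both in epiWAT. Of 18 glycogen genes 15 were below 0 in the average over depots, with a median of -0.47, against 48.3% of all genes below 0, and the list itself was not tested. Of them Pygb, a glycogen phosphorylase, fell by 1.21 (SE 0.20, adjusted p = 0.0106). It read 11.68, 11.40, 12.03 and 12.31 in epiWAT with WT marrow and 10.52, 10.43, 10.04 and 10.71 with Gipr-/- marrow, and in ingWAT 10.72 to 11.61 against 9.82 to 10.27, without overlap in either depot. No single array undid this call, but it was lost without the 4 muscle-rich arrays (adjusted p 0.256). The ingWAT median was -0.52. Pygm, the muscle phosphorylase, read 15.52, 17.46, 18.82 and 8.37 on the ingWAT WT arrays, whose muscle levels were in the same order, and the part of muscle in the list's median was not tested.

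**Figure D4:**
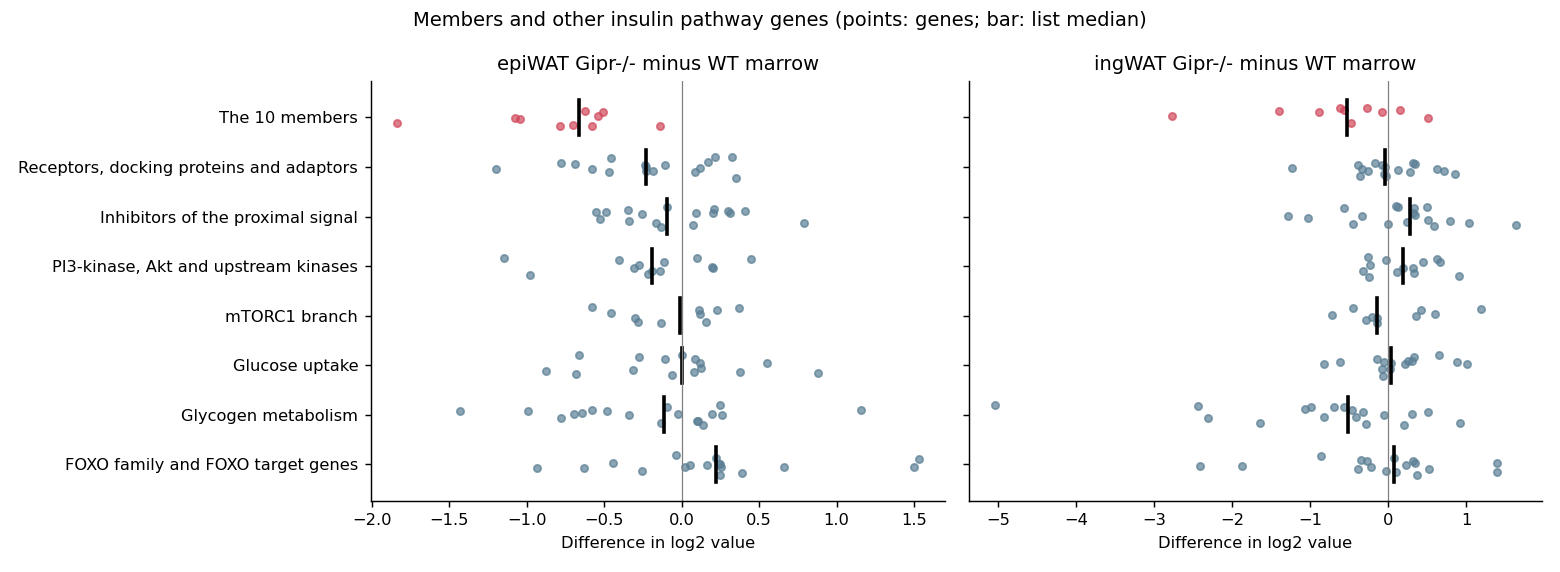
Each point is the Gipr-/- minus WT difference in log2 value (horizontal axis, a separate scale per panel) of 1 gene tested, for the 10 members in red and 7 lists of other insulin pathway genes in blue, with a black bar at the list median. The member median lies at -0.66 in epiWAT and -0.53 in ingWAT, and in ingWAT the glycogen list has a median of -0.52 with its lowest points far to the left.

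Of 108 pathway genes tested in ingWAT 3 passed between Gipr-/- and double-knockout marrow, all lower, while 3.48% of all genes passed and 2.65% passed as lower, so the share in the pathway was near that of all genes. They were a pair of inhibitors and a vesicle fusion gene. Grb10, an adaptor that blocks the insulin receptor, read 9.95, 10.21 and 10.02 on the Gipr-/- arrays and 9.08, 8.73 and 9.24 on the double-knockout arrays, and fell by 1.04 (SE 0.24, adjusted p = 0.0376). Deptor, an inhibitor of mTOR, read 11.42, 10.92 and 11.01 against 8.80, 10.03 and 9.73, and fell by 1.59 (SE 0.34, adjusted p = 0.0273). Snap23, a membrane fusion protein used in GLUT4 delivery, read 14.80, 14.87 and 14.46 against 13.42, 13.81 and 13.39, and fell by 1.17 (SE 0.23, adjusted p = 0.0223). All 3 genes were without overlap, as were 13.9% of genes in that direction, and lay above WT under Gipr-/- marrow, at 0.80, 1.19 and 1.01, where the adjusted p values were 0.126, 0.111 and 0.0631. In that depot Irs1 was low where they were high. Pdpk1, of the listed upstream kinases, had the same ingWAT pattern at 0.91 and -1.08, neither past the threshold. In epiWAT, where Irs1 was also low, Gipr-/- minus WT was -0.53 (SE 0.53) for Grb10 and 0.23 (SE 0.64) for Deptor. For Snap23 it was 0.37 (SE 0.41), and the arrays of all 3 genes overlapped. The 3 calls in ingWAT were not stable. Leaving out double-knockout array 1 or 3, or Gipr-/- array 1 or 2, lost each of them, and leaving out Gipr-/- array 3 lost Grb10 and Deptor. Leaving out WT array 1, 2 or 3 also lost Grb10. With 1 array out the highest adjusted p was 0.155, 0.111 and 0.106 for Grb10, Deptor and Snap23, and without the 2 B cell-rich arrays it was 0.15, 0.24 and 0.259. In a single fit of all 22 arrays all 3 were lost (0.272, 0.165 and 0.107), and Grb10 also after quantile normalization (0.0521) and without the muscle-rich arrays (0.0645).

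Grb14 differed by depot. It is a relative of Grb10 that also binds and inhibits the insulin receptor. In epiWAT it averaged between 5.91 and 6.57 in the 3 groups, and in ingWAT between 8.00 and 8.51. The rise from epiWAT to ingWAT was 1.50 (SE 0.35, adjusted p = 0.0306) for WT marrow, 1.94 (SE 0.38, adjusted p = 0.0286) for Gipr-/- and 2.28 (SE 0.38, adjusted p = 0.00345) for double-knockout, where 1.96%, 0.614% and 3.92% of genes passed. The last of these held without any single array. The first was lost without ingWAT WT array 1 or 4 or any epiWAT WT array (adjusted p up to 0.0927) and without the 4 muscle-rich arrays (2.08, adjusted p 0.124), and the second without any ingWAT Gipr-/- array or epiWAT Gipr-/- array 1 or 4 (up to 0.155) or without the 2 epiWAT arrays of other tissue (0.0564). Another 4 of the listed pathway genes (111 on the array) passed the threshold between depots, Pygm with WT marrow and the others with double-knockout marrow. There 1.96% and 3.92% of all genes passed, and with Grb14 counted the share in the pathway was near these. With WT marrow Pygm was 6.64 higher in ingWAT (SE 1.53, adjusted p = 0.0292), and -0.03 without the muscle-rich arrays. It was lost too without any of the 3 muscle-rich WT arrays or any epiWAT WT array (up to 0.0976). With double-knockout marrow Prkcq, a protein kinase C gene, was 3.52 higher (SE 0.76, adjusted p = 0.0154), and 0.57 (adjusted p 0.723) without the 2 B cell-rich arrays. Pik3cd, a PI3-kinase catalytic subunit of white blood cells, was 1.78 higher (SE 0.49, adjusted p = 0.0471), and 0.63 (adjusted p 0.677) without them. Ccng2, a FOXO target, was 1.57 higher (SE 0.38, adjusted p = 0.0277), and 1.40 (adjusted p 0.25) without them. Leaving out either B cell-rich array alone lost each of the last 3 calls. Ccng2 was also lost without epiWAT double-knockout array 1 or 3, and Pik3cd without 17 of the 22 single arrays. Without the 2 epiWAT arrays of other tissue both were lost (0.0533 for Ccng2 and 0.0959 for Pik3cd), and Pik3cd also with no filter (0.0585) or median centring (0.0536). Vamp2, a vesicle protein of GLUT4 delivery, rose by 0.94 (SE 0.24, adjusted p = 0.0489) from Gipr-/- to double-knockout marrow in the average over depots. In that contrast 1.92% of all genes passed. The Vamp2 call was lost without any of 17 single arrays, at an adjusted p of up to 0.154. It was also lost with no filter (0.0635), median centring (0.0591), no trend (0.0553) or all features (0.0504), and without the arrays of other tissue (0.0764), the muscle-rich arrays (0.0563) or the B cell-rich arrays (0.186).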

How the data were processed

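RNA of whole fat (100 ng per sample) was measured on 1-colour Affymetrix arrays, 22 in all. The authors deposited 1 processed value per feature, taken here as log2 from their range of 1.92 to 19.9; the log base, the normalization and the build are not given in the sources used here. Partek 6.6 is named in the submitters' processing notes without a role. Array medians lay between 6.11 and 6.54 and arrays of a group correlated at r 0.907 to 0.984. Precision is limited by the number of arrays.

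Of 21793 features 19341 carried 1 symbol, 0 carried several and 2452 were unnamed here. For 4 genes with 2 features the higher mean was kept, which left 19337 genes, and the 25% lowest in mean were left out of tests (14503 tested). Differences were tested two-sided with limma 3.58.1 (R 4.3.3; lmFit and eBayes with trend), Benjamini-Hochberg adjusted over all tested genes at 0.05. Comparisons of marrow used the 3 groups of a depot; comparisons of depots, their differences and averages over both used all 22 arrays. The script was tested on simulated data. Exact permutation tests, marker levels and promoters used Python 3.11.15 with scipy 1.17.1.

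By rule all members were named, with the pathway genes past the threshold (at most 4 per list), the 5 genes most like Irs1 per depot and, as examples, some of the 2 genes of smallest p in lists without a call. The members and lists were chosen with earlier results of these data known. Alternatives covered the filter, normalization, array weights, covariates and arrays left out. Whether arrays come from separate mice is not stated in the labels; the p-values then cover only array-to-array spread, which may be technical.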

Additional observations from a re-analysis of the deposited data

Results flagged for a closer look

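In 3 of 40 groups of 4 arrays of a member, 1 array stood far from the other three; chance gives about 1 such group in 20. Irs2 in epiWAT with WT marrow read 12.16 on 1 array, below the others at 12.88 to 12.92. Irs2 in epiWAT with double-knockout marrow read 12.64 on 1 array, above the others at 11.55 to 11.72. Pik3r1 in epiWAT with WT marrow read 15.39 on 1 array, above the others at 14.81 to 14.87.

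Prr5, a subunit of the mTORC2 kinase that phosphorylates Akt, had differences of opposite sign in the depots. Double-knockout minus Gipr-/- was 1.10 in epiWAT and -0.74 in ingWAT. The difference between them was -1.84 (SE 0.40, limma adjusted p = 0.0373), where 0.717% of all genes passed. That call was lost without any of 12 single arrays, at an adjusted p of up to 0.107, and in 17 of 32 alternatives in all.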

How the results depend on the processing

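No paired analysis was possible because the replicate numbers follow accession order and the labels tie no epiWAT sample to an ingWAT sample of the same mouse. Fits of both depots, averages included, therefore treated all arrays as independent, which was not tested. Over 2710 settings of 90 member differences larger than 1 SE, 2647 kept direction and side of the threshold, 30 came past it, 17 no longer passed and 16 reversed. Few of these differences had passed in the main fit, and for the others staying short of the threshold counted as kept. Of the averages that had passed, Irs1 lost its call in 2 of 36 settings for Gipr-/- minus WT. It lost it in 2 of 36 for double-knockout minus Gipr-/-, and Gys1 in 13 of 36 for Gipr-/- minus WT. Differences under 1 SE were not counted here as kept or reversed. Leaving out the muscle-rich or the B cell-rich arrays leaves 1 array in a group, assumed to vary like the others. These, the marker covariates and the averages over depots were chosen after seeing the data. Centring arrays on their medians shifted the gene median by up to 0.146 (ingWAT minus epiWAT, Gipr-/- marrow). The cause of each change was not tested.

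With the macrophage level as covariate, Pik3r1 in ingWAT became 0.035 for Gipr-/- minus WT and, for double-knockout minus Gipr-/-, Pik3r1 became -0.13, Insr -0.069 and Gys1 -0.34. With the muscle level as covariate, Foxo1 in epiWAT became 0.032 for Gipr-/- minus WT. Without the muscle-rich arrays, ingWAT Pik3r1 became 0.13 for Gipr-/- minus WT, ingWAT Akt2 became 0.12 and Slc2a4 0.031 for double-knockout minus WT, Irs2 became 0.067 between depots with double-knockout marrow, and Pygm -0.030 between depots with WT marrow. Without the B cell-rich arrays, ingWAT Insr became -0.20 and Pde3b -0.19 for double-knockout minus Gipr-/-, Slc2a4 became 0.019 for double-knockout minus WT, and between depots with double-knockout marrow Insr became -0.25, Akt2 -0.19 and Akt1 0.0042. With 1 array out, Irs2 in that depot comparison lay between -0.99 and 0.067, the latter without ingWAT double-knockout array 2.

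Counts of genes past the threshold moved as follows. Gipr-/- minus WT in epiWAT gave 0, from 0 to 1 with 1 array out, 26 with array weights and 6 over all features. Double-knockout minus Gipr-/- in epiWAT gave 0, and 1 in a single fit of 22 arrays. Gipr-/- minus WT in ingWAT gave 34, from 0 to 274 with 1 array out, 148 with the 50% filter, 9 after quantile normalization, 112 with median centring, 1 without the trend, 401 with weights, 97 in a single fit, 2 without muscle-rich and 86 without B cell-rich arrays. Double-knockout minus Gipr-/- in ingWAT gave 505, from 49 to 1382 with 1 array out, 1797 with weights, 1651 without muscle-rich and 0 without B cell-rich arrays. Double-knockout minus WT in ingWAT gave 0, from 0 to 620 with 1 array out, 13 with the 50% filter, 4 after quantile normalization, 555 with weights, 15 over all features, 133 in a single fit and 343 without muscle-rich arrays. Between depots WT marrow gave 284, from 81 to 373 with 1 array out, 154 with the 50% filter, 791 with weights, 436 without the 2 epiWAT arrays of other tissue and 10 without muscle-rich arrays. Gipr-/- marrow gave 89, from 2 to 225 with 1 array out, 57 with no filter, 623 with weights and 59 without arrays of other tissue. Double-knockout marrow gave 568, from 96 to 862 with 1 array out, 1187 with weights and 203 without B cell-rich arrays. The difference between depots gave 0 for Gipr-/- minus WT (0 to 2 with 1 array out, 2 with the 50% filter, 28 with weights). It gave 104 for double-knockout minus Gipr-/- (5 to 543 with 1 array out, 69 with no filter, 929 with weights, 461 without muscle-rich, 5 without B cell-rich arrays). It gave 0 for double-knockout minus WT (0 to 277 with 1 array out, 292 with weights, 2 without arrays of other tissue, 150 without muscle-rich arrays). The average over depots gave 83 for Gipr-/- minus WT (13 to 177 with 1 array out, 47 with no filter, 154 with the 50% filter, 35 with centring, 808 with weights, 228 without arrays of other tissue, 1 without muscle-rich arrays). It gave 278 for double-knockout minus Gipr-/- (68 to 690 with 1 array out, 1227 with weights, 587 without muscle-rich, 1 without B cell-rich arrays). It gave 1 for double-knockout minus WT (1 to 239 with 1 array out, 202 with weights, 2 over all features, 107 without muscle-rich, 0 without B cell-rich arrays).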
